A study of Mus musculus with 12 samples.

Results

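Translation efficiency (TE), the density of ribosome footprints on a coding sequence (CDS) relative to the abundance of its mRNA, was compared between brains of mice treated with AZD-8055 and brains of mice treated with vehicle. All genes with a mean of at least 37 CDS counts in the RNA-Seq libraries and in the footprint libraries were included, which left 10531 of the 20504 genes in the count table, and 8 of the 12 libraries of the series were used. All animals were adult Camk2a-RiboTag mice, in which Cre recombinase driven by the Camk2a promoter, active in excitatory neurons of the forebrain, switches the ribosomal protein gene Rpl22 to a copy with a hemagglutinin tag. Mice C and D received a single dose of 100 mg/kg AZD-8055 by oral gavage and were sacrificed 1 h later. Mice A and B, which the labels call untreated, received the Captisol vehicle by the same route according to the methods. Footprints and poly(A)-selected RNA were sequenced from 1 homogenate of the right frontal lobe per animal, so that there were 2 mice per treatment and the RNA and footprints of a mouse share a tissue sample. Neither library was restricted to the tagged cells, and the values are averages over all cells of the tissue, in which fewer cells of a type and less RNA per cell cannot be told apart.

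AZD-8055 blocks the ATP site of mTOR, a kinase that couples growth signals to protein synthesis. Active mTOR phosphorylates the 4E-BP proteins, which otherwise sequester the cap-binding factor eIF4E, and it also acts on LARP1, a protein that binds the 5′ end of a particular class of mRNAs. These mRNAs start with a C followed by a run of pyrimidines, the terminal oligopyrimidine (TOP) motif, and they encode the ribosomal proteins, the elongation factors and several other components of the translation machinery.

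The start sites of several genes with large changes in TE are shown here because the TOP motif is defined at the first transcribed base. Each line gives 15 bases before the annotated RefSeq start and 15 bases from that start onwards, 5′ to 3′ on the transcribed strand (build GRCm38.p6, the same assembly as the mm10 build named in the submitters' processing notes). The window therefore covers the end of the promoter and the beginning of the first exon. Capitals mark the longest stretch that begins with C and goes on with at least 4 bases that are C or T. Eef1a2, the neuronal paralog of the elongation factor gene Eef1a1, is shown for comparison. The lines are a selection. Left out of the 15 largest falls were, for example, Rpl37 with no such stretch and Rpl13, whose stretch began 13 bases before the start. Rps24 and Rpl22 had a stretch at 1 annotated start, beginning 2 and 10 bases before it, and none at the other. Of genes with higher TE, Fat3, Dst and Ubr4 had a stretch in a window, and Mdn1, Smg1, Macf1, Cacna1e and Bsn had none.
Eef1a1, chr9:78481710-78481739, minus strand: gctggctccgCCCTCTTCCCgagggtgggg
Eef1a2, chr2:181157001-181157030, minus strand: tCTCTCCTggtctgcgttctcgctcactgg
Rpl13a, chr7:45128731-45128760, minus strand: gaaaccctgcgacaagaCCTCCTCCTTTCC
Rps12, chr10:23787195-23787224, minus strand: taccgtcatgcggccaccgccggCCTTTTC
Rpl27a, chr7:109519180-109519209, plus strand: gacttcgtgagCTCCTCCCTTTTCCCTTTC
Rps2, chr17:24720048-24720077, plus strand: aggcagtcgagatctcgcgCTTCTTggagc
Eif3f, chr7:108934400-108934429, plus strand: tctgttctaggCTCTCTCTCTTTCTCggca
Cox7a2l, chr17:83514319-83514348, minus strand: cctaaggggaagccgggtCCTTTTCTaggg
Nob1, chr8:107425024-107425053, minus strand: gcgcggtctgtccttgacagccaacatggc
Pfdn5, chr15:102326101-102326130, plus strand: ccctggcggcaccacggaggtaacgcggag

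The libraries held between 9395385 and 10649939 CDS counts for RNA-Seq and between 3503873 and 9259938 for footprints, a 2.64-fold range with the fewest in mouse C. Among markers of the labelled tissue, all 11 listed markers of excitatory neurons and all 13 of interneurons passed the count threshold, whereas none of the 5 blood markers did. Most of these blood markers are globin paralogs, and reads that mapped to more than 1 place were not counted. Their low counts therefore say little about blood in the tissue. The summed share of RNA-Seq counts on 13 striatal markers was 0.255% and 0.252% in the vehicle mice (A, B) and 0.289% and 0.302% in the AZD-8055 mice (C, D), higher in both treated mice. In footprints it was 0.239% and 0.244% against 0.261% and 0.299%. The interneuron markers were also higher in both treated mice, at 0.142% and 0.142% against 0.148% and 0.152% of RNA-Seq counts and at 0.217% and 0.217% against 0.229% and 0.235% of footprints. In footprints alone, the excitatory markers were higher (0.430% and 0.431% against 0.481% and 0.493%) and those of microglia lower (0.0858% and 0.0850% against 0.0802% and 0.0804%). The other marker lists overlapped between treatments in both assays. The part of these shifts in the results was not tested. None of the 108 tested genes in the marker lists was called for a change in TE by edgeR, DESeq2 or limma-voom, and 1 was called with the replicate block. An unadjusted p under 0.05 was found for 7 of them and for 769 of the 10531 tested genes (7.30%), against which such counts for the lists are to be read. DESeq2 gave an adjusted p for only 4814 of the 10531 genes. Here and in the lists below, a gene without an adjusted p from DESeq2 counts as not called by it. With 2 mice against 2 no permutation test of a single gene can reach 0.05, so tests were taken from a fit across all genes. Its p-values rest on the spread between the 2 mice within each assay and treatment, with information shared across genes. The main fit does not pair the RNA-Seq and footprint library of a mouse.

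After AZD-8055, the TE of 96 genes was lower and that of 10 genes was higher at an adjusted p under 0.05 (edgeR's quasi-likelihood test of the assay by treatment interaction, Benjamini-Hochberg adjustment over 10531 genes). These were 0.912% and 0.095% of the genes tested. A total of 34 genes, 0.323% of those tested, also changed by more than 2-fold, and the TE of each of them was lower. Of the 96 genes with lower TE, 74 encode ribosomal proteins, 15 belong to the other lists counted here as translation machinery and 7 lie outside these lists. The lists include 14 further genes known for TOP motifs. Some of these, such as Hnrnpa1, Tpt1 and Vim, are counted as machinery for their TOP motif and not for a role in translation. The median log2 change in TE over all tested genes was −0.01, with an SD of 0.24 across genes. For single genes, both AZD-8055 mice lay below both vehicle mice in 19.9% of all tested genes and above them in 18.1%, and none of the 106 called genes overlapped between the treatments.

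The lower TE came from the footprints. All 96 genes with lower TE also had fewer footprints after AZD-8055 by the same test, with log2 changes in footprints from −1.57 to −0.49, and none of them had a called change in RNA, where log2 changes ranged from −0.14 to 0.25. Across all genes, 1.45% had fewer footprints and 0.446% had more, while 0.076% had less RNA and 0.019% had more. The plot of RNA against footprint changes shows the genes with lower TE as a vertical column below the cloud of other genes.

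**Figure D1:**
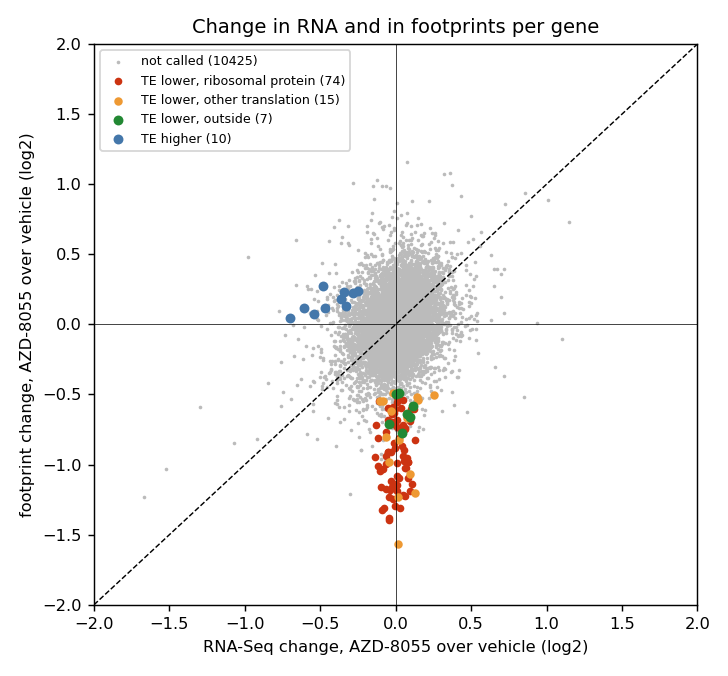
Log2 change in RNA-Seq counts (horizontal) and in footprint counts (vertical) after AZD-8055 for each tested gene, 1 point per gene, with genes called for TE coloured by group and the dashed line marking equal changes, that is, no change in TE. The genes with lower TE lie at RNA changes from −0.14 to 0.25 and footprint changes from −1.57 to −0.49, the 10 with higher TE lie to the left of the vertical zero line, and 3 genes beyond the limits of 2 are not drawn.

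The ribosomal proteins of the cytoplasmic ribosome moved as a group. Their genes took 1.26% and 1.23% of all CDS footprints in the vehicle mice (A, B), but 0.679% and 0.698% in the AZD-8055 mice (C, D). In the RNA-Seq libraries of the same mice, the share was 2.64% and 2.68% under vehicle and 2.62% and 2.59% under AZD-8055. The footprint shares of the treatments were thus far apart, while the RNA shares of all 4 mice lay close together.

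**Figure D2:**
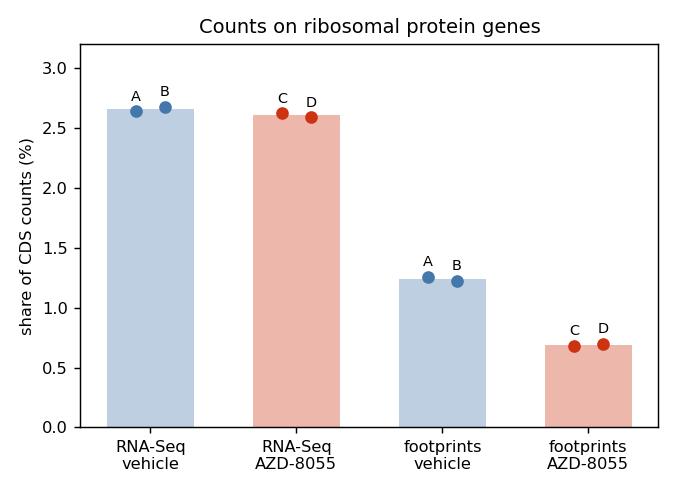
Share of all CDS counts that fell on 79 ribosomal protein genes, in percent, for each library (points, labelled with the mouse) and the mean of both mice (bars). In footprints the vehicle mice sit at 1.26% and 1.23% and the AZD-8055 mice at 0.679% and 0.698%, while in RNA-Seq all 4 mice sit between 2.59% and 2.68%.

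TE was lower for 43 of the 46 tested proteins of the large subunit and for all 31 tested proteins of the small subunit, with median log2 changes of −0.88 and −0.95, against −0.01 for all genes. In all 77 the AZD-8055 mice lay below both vehicle mice. Within the small subunit, Rps12 had the largest fall. The log2 TE of Rps12 was −2.37 (A) and −2.20 (B) under vehicle and −3.80 (C) and −3.53 (D) under AZD-8055, a log2 change of −1.35 ± 0.14 (SE, adjusted p = 2.7e-05 by edgeR). It rested on 474 and 271 footprints in the vehicle mice and 65 and 108 in the AZD-8055 mice. Both treated mice lay below both vehicle mice.

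Within the large subunit, Rpl13a had the largest fall, with a log2 TE of −1.89 and −1.93 in the vehicle mice and of −3.50 and −3.05 in the AZD-8055 mice, a change of −1.34 ± 0.13 (SE). Rpl3, which lies near the peptidyl transferase center of the ribosome, fell by 1.29 on the log2 scale (SE 0.085), from a log2 TE of −1.20 and −1.16 to −2.48 and −2.45. Rpl22, the gene that carries the tag in these animals, had a log2 TE of −0.29 and −0.53 in the vehicle mice and of −1.85 and −1.49 in the AZD-8055 mice, on only 54 footprints in mouse C. The tagged allele was present in all 4 mice. Rpl32 was the most variable of the 15 largest falls between the AZD-8055 mice, at −2.05 in mouse C and −2.62 in mouse D, both below the vehicle mice at −0.93 and −1.22.

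Among the 3 ribosomal proteins that were not called were Rpl19 and Rplp2, named here after their values were seen. Rpl19 had a log2 change in TE of −0.41 (adjusted p = 0.065 by edgeR). Rplp2, a protein of the ribosomal stalk, had values of −1.65 (A) and −1.92 (B) under vehicle and of −2.16 (C) and −2.04 (D) under AZD-8055, a change of −0.34 ± 0.12 (SE, adjusted p = 0.44 by edgeR). Mouse D lay closer to mouse B than mouse B lay to mouse A. Of 4 tested paralogs of ribosomal proteins, none was called by edgeR, DESeq2 or limma-voom, 2 had an unadjusted p under 0.05 and 1 was called with the replicate block. The lowest value was that of Rpl22l1, the paralog of Rpl22, at −0.58 ± 0.14 (SE, adjusted p = 0.072 by edgeR). The highest of the paralogs was Rpl7l1 at −0.09. Ribosomal protein genes have many processed pseudogenes, and reads that mapped to more than 1 place were not counted, so the absolute level of a single ribosomal protein gene is uncertain.

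Eef1a1, which encodes the elongation factor that delivers aminoacyl-tRNA to the ribosome, had the largest called fall of all genes. Under vehicle it had 13903 (A) and 6304 (B) footprints and 32974 and 34096 RNA-Seq counts. Under AZD-8055 it had 1767 (C) and 2250 (D) footprints and 35236 and 36338 RNA-Seq counts. The log2 TE was −1.14 and −1.25 in the vehicle mice and −2.73 and −2.81 in the AZD-8055 mice, a change of −1.58 ± 0.077 (SE, adjusted p = 1.8e-08 by edgeR), which left 33.4% of the TE in vehicle. Eef1a2, which encodes the form of the same factor that prevails in mature neurons and muscle, had a log2 TE of 0.15 and 0.28 in the vehicle mice and of 0.10 and 0.071 in the AZD-8055 mice. The change of −0.13 ± 0.07 (SE, adjusted p = 0.72 by edgeR) was about as large as the gap between both vehicle mice. The difference between the paralogs themselves was not tested. In the sequences above, the pyrimidine run of Eef1a1 spans its annotated start, and that of Eef1a2 lies at the far upstream end of its window.

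Of 7 tested elongation factor genes, 4 were called. Besides Eef1a1 these were Eef2, which moves the ribosome along the mRNA, and Eef1g and Eef1b2, subunits of the complex that recharges eEF1A with GTP. The TE of Eef2 fell by 1.16 on the log2 scale (SE 0.073), from −0.79 in both vehicle mice to −2.01 and −1.88. Eef1g and Eef1b2 changed by −0.94 and −0.59.

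Among the initiation factors, the changes were spread unevenly over the subunits. Of 12 tested subunits of eIF3, the scaffold that holds the small ribosomal subunit ready for initiation, 4 had lower TE. Eif3f led them, with a log2 TE of −0.75 and −0.92 in the vehicle mice and of −2.14 and −2.01 in the AZD-8055 mice, a change of −1.25 ± 0.11 (SE). The others were Eif3e at −0.66, Eif3h at −0.47 and Eif3m at −0.46. Eif3b, a core subunit, had the highest value at 0.05, and the median of the 12 was −0.23. Of 14 tested genes around the cap-binding complex, 2 were called. Eif4a2, an RNA helicase that unwinds 5′ leaders, had a log2 TE of 0.43 and 0.57 in the vehicle mice and of −0.25 and −0.45 in the AZD-8055 mice, a change of −0.85 ± 0.10 (SE). Eif4b, a cofactor of this helicase, changed by −0.76 ± 0.10 (SE). The highest member of this group was Eif4g3 at 0.07, and its median of −0.02 was close to that of all genes. Of 21 other initiation factor genes, Eif2a was the only one called, at −0.68 ± 0.13 (SE), and the highest was Eif2b2 at 0.32 without a call.

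Further genes known for TOP motifs formed a list of 14, of which 4 were called. Pabpc1, the cytoplasmic poly(A)-binding protein, stood out with a log2 TE of −0.66 and −0.56 in the vehicle mice and −1.77 and −2.10 in the AZD-8055 mice, a change of −1.33 ± 0.14 (SE). The others were Hnrnpa1 (−0.74), an RNA-binding protein of the nucleus, Gnb2l1 (−0.74), which encodes the ribosome-bound scaffold RACK1, and Tpt1 (−0.44). Pabpc4, a paralog of Pabpc1, lay at 0.00 ± 0.24 (SE), on 73 and 43 footprints in the vehicle mice and 24 and 44 in the AZD-8055 mice. Its sign depended on the scaling, with values from 0.00 under size factors to 0.03 under total counts. With so wide an error, the value does not show that the TE of Pabpc4 was unchanged. With the mouse as a replicate block, 8 of the 14 were called. The list was drawn from genes already known for this response and is no independent evidence of its direction. The list of 22 tRNA synthetase genes includes Aimp1 and Aimp2, which are not synthetases themselves. None of the 22 was called by edgeR, DESeq2 or limma-voom, although 3 were lower at an unadjusted p under 0.05 and 1 was called with the replicate block. Their median was −0.05, the lowest was Aimp1 at −0.55 (adjusted p = 0.12 by edgeR) and the highest was Vars at 0.17.

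**Figure D3:**
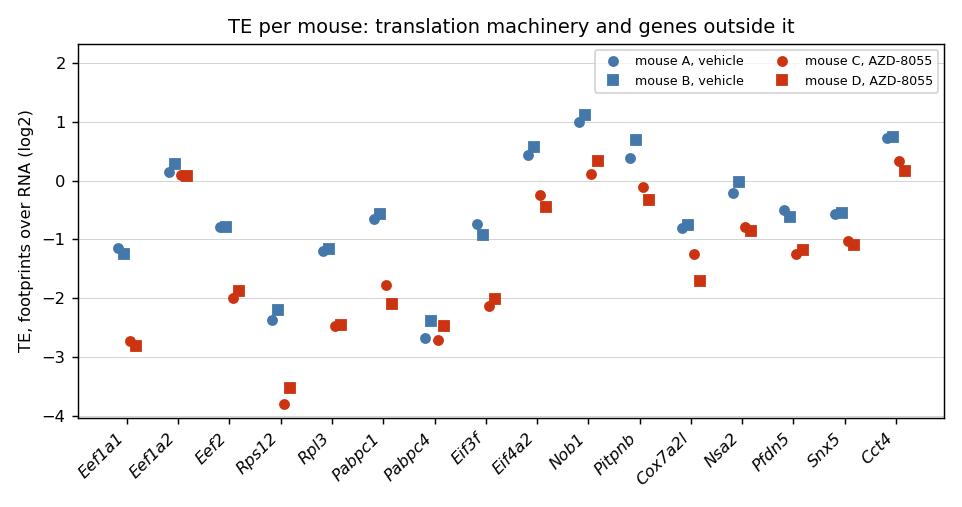
Log2 TE in each of the 4 mice (blue, vehicle; red, AZD-8055) for genes of the translation machinery, for the paralogs Eef1a2 and Pabpc4, and for the 7 genes outside the machinery with lower TE. The red points lie below the blue points in each called gene, whereas the points of Pabpc4 are intermingled. In Eef1a2, which was not called, the red points also lie below the blue points, and all 4 lie between 0.071 and 0.28.

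Beyond the translation machinery, 7 of 10360 tested genes had lower TE: Nob1, Pitpnb, Cox7a2l, Nsa2, Pfdn5, Snx5 and Cct4. The changes were smaller than those of most ribosomal proteins. None changed by 2-fold or more, and none of the 7 had a called change in RNA, the largest log2 change being 0.114 in Nsa2.

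Nob1 (chr8:107412489-107425038) encodes the endonuclease that makes the final cut of 18S rRNA in pre-40S particles. Its normalized footprint count was 635 (A) and 700 (B) under vehicle and 356 (C) and 416 (D) under AZD-8055, while its normalized RNA-Seq count lay between 319 and 331 in all 4 mice. The log2 TE went from 0.99 and 1.11 to 0.10 and 0.33, a change of −0.82 ± 0.14 (SE, adjusted p = 0.0061 by edgeR). Nsa2 (chr13:97129427-97137926), a maturation factor of pre-60S particles, had a log2 TE of −0.22 and −0.03 in the vehicle mice and of −0.79 and −0.86 in the AZD-8055 mice, a change of −0.70 ± 0.15 (SE, adjusted p = 0.041 by edgeR). Both genes act in ribosome assembly, yet of 58 other tested genes in a list for ribosome biogenesis none was called by edgeR, DESeq2 or limma-voom, and 3 were lower and 3 higher at an unadjusted p under 0.05. The median of that list was −0.02, with Polr1c lowest at −0.54 and Noc4l highest at 0.40.

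Pfdn5 and Cct4 belong to connected machines for protein folding. Pfdn5 (chr15:102326116-102331490) encodes a subunit of prefoldin, which hands unfolded actin and tubulin to the chaperonin CCT, and Cct4 (chr11:22990593-23003336) encodes a subunit of CCT. The log2 TE of Pfdn5 was −0.49 and −0.62 in the vehicle mice and −1.25 and −1.18 in the AZD-8055 mice, a change of −0.67 ± 0.10 (SE, adjusted p = 0.0014 by edgeR). That of Cct4 was 0.73 and 0.75 in the vehicle mice and 0.33 and 0.16 in the AZD-8055 mice, a change of −0.50 ± 0.11 (SE, adjusted p = 0.038 by edgeR). Of the 13 tested subunits of CCT and prefoldin these 2 were called. A change below zero was seen in 12 of the 13, with a median of −0.14, and in 5405 of all 10531 tested genes. At an unadjusted p under 0.05, 6 of the 13 were lower, and 3 were called with the replicate block. Cct3 was the highest, at 0.04. Among 20 heat shock proteins and cochaperones none was called by the same 3 tools, and 2 were lower at an unadjusted p under 0.05, with Hspe1 lowest at −0.36 and Bag3 highest at 0.40.

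Cox7a2l (chr17:83501917-83514333) encodes a factor that joins complexes of the respiratory chain into supercomplexes. Its log2 TE was −0.81 and −0.75 in the vehicle mice and −1.25 and −1.72 in the AZD-8055 mice, a change of −0.72 ± 0.16 (SE, adjusted p = 0.038 by edgeR) on 136 footprints in either treated mouse. Cox7a2l was the only one of 77 tested genes of the respiratory chain to be called by edgeR, while DESeq2 called 3 and the fit with the replicate block 2. At an unadjusted p under 0.05, 9 of the 77 were lower and 1 was higher. The median of the 77 was −0.07 and Ndufa3 was the highest at 0.44. Pitpnb (chr5:111330697-111388359), a phosphatidylinositol transfer protein of the Golgi, changed by −0.75 ± 0.17 (SE, adjusted p = 0.047 by edgeR), from a log2 TE of 0.38 and 0.69 to −0.10 and −0.33. Snx5 (chr2:144250123-144270902), a sorting nexin that recycles receptors from endosomes, changed by −0.51 ± 0.11 (SE, adjusted p = 0.032 by edgeR), from −0.57 and −0.56 to −1.03 and −1.10.

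With the mouse as a replicate block, which pairs the footprint and RNA-Seq library of each animal, all 96 genes with lower TE and all 10 with higher TE remained called. Under that block the counts rose to 119 genes with lower TE, of which 22 lay outside the translation machinery, and 34 with higher TE. Leaving out single mice lowered the number outside the machinery. It was 0 without mouse A, 1 without mouse B, 5 without mouse C and 2 without mouse D, against 7 with all mice. With all mice, 338 of the 10360 tested genes outside the machinery were lower at an unadjusted p under 0.05, and 320 were higher. The signs of the 7 changes remained negative in every alternative tried. All 7 were picked as called genes without overlap between treatments, so the stable sign is no further evidence.

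The 10 genes with higher TE had another profile, with lower RNA counts in both treated mice and no called change in footprints. They were Fras1, Mdn1, Fat3, Smg1, Macf1, Wdfy3, Dst, Cacna1e, Bsn and Ubr4, with log2 changes in TE from 0.46 to 0.76. Their log2 changes in RNA ranged from −0.70 to −0.25, and 4 of the 10 (Mdn1, Fat3, Smg1 and Macf1) also had a called fall in RNA. Their log2 changes in footprints ranged from 0.05 to 0.27, and none was called.

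Fat3, an atypical cadherin that shapes neuronal dendrites, had the smallest adjusted p of these genes. Its normalized RNA-Seq count was 514 (A) and 526 (B) under vehicle and 345 (C) and 338 (D) under AZD-8055, and its normalized footprint count was 1310, 1302, 1462 and 1381 in the order A to D. The log2 TE was 1.35 and 1.31 in the vehicle mice and 2.09 and 2.03 in the AZD-8055 mice, a change of 0.72 ± 0.099 (SE, adjusted p = 4.8e-04 by edgeR). Mdn1, a giant ATPase of 60S ribosome assembly, had normalized RNA-Seq counts of 890 and 963 in the vehicle mice and of 535 and 603 in the AZD-8055 mice. Its footprints overlapped between treatments, at 510, 555, 506 and 585, and its log2 TE changed by 0.75 ± 0.14 (SE, adjusted p = 0.0079 by edgeR). Fras1, a protein of the extracellular matrix, had the largest rise of 0.76 ± 0.14 (SE, adjusted p = 0.0093 by edgeR). Its RNA was lower and its footprints were higher in both treated mice, as in each gene with higher TE other than Mdn1 and Smg1.

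The remaining 7 genes have varied roles. Macf1 and Dst, which link actin filaments to microtubules, changed by 0.58 and 0.55. Bsn, a scaffold of the presynaptic active zone, changed by 0.49 ± 0.097 (SE) and Cacna1e, the pore of R-type calcium channels, by 0.51 ± 0.10 (SE). Bsn was the only called gene of 40 for vesicle release, where Syt4 was lowest at −0.21. Cacna1e was the only called gene of 21 calcium channel genes, whose median was 0.16 and whose lowest member was Cacng5 at −0.24. Smg1, the kinase of nonsense-mediated decay, Wdfy3, an adaptor of selective autophagy, and Ubr4, a ubiquitin ligase, changed by 0.62, 0.58 and 0.46.

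**Figure D4:**
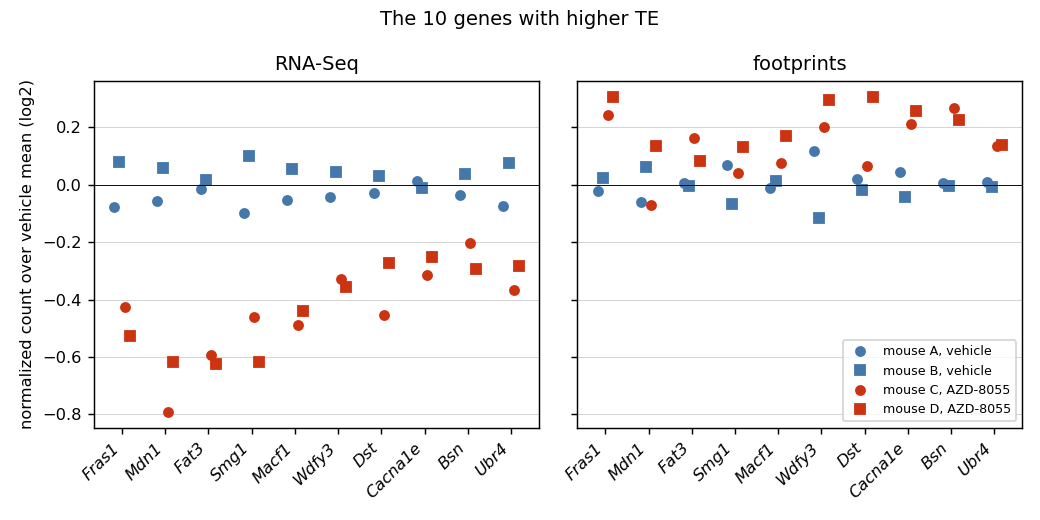
Normalized counts of the 10 genes with higher TE, as log2 relative to the geometric mean of both vehicle mice, in RNA-Seq (left) and footprints (right), with 1 point per mouse (blue, vehicle; red, AZD-8055). In RNA-Seq the AZD-8055 mice lie below the vehicle mice in each gene, while in footprints the points of Mdn1 and Smg1 overlap between treatments.

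The summed share of RNA-Seq counts on these 10 genes was 0.257% (A) and 0.278% (B) under vehicle and 0.195% (C) and 0.204% (D) under AZD-8055, and their share of footprints was 0.216%, 0.214%, 0.235% and 0.252% in the same order. The RNA-Seq counts on exons were also set against those on CDS, a ratio that reflects the counts outside the CDS and not the coverage within it. The median log2 ratio over genes was 0.642 (A), 0.644 (B), 0.613 (C) and 0.638 (D). It was lower in both treated mice, with mouse D closer to the vehicle mice than to mouse C. The part of RNA quality and of transcript length in the lower RNA counts was not tested. With exon counts in place of CDS counts for RNA-Seq, 6 of the 10 remained called, and without mouse A 3, without mouse B 1, without mouse C 7 and without mouse D 2 of the 10 did. Fat3 was called under each of these.

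The pathway that AZD-8055 targets held no call for TE. None of 45 tested genes of the mTOR pathway was called by edgeR, DESeq2 or limma-voom, and 1 had an unadjusted p under 0.05, with a median log2 change of −0.05. Mtor lay at 0.09 ± 0.096 (SE), Rptor, which encodes the scaffold Raptor, at 0.14 ± 0.11 (SE), Larp1 at −0.05 ± 0.12 (SE) and Rps6kb1, the S6 kinase, at 0.04 ± 0.17 (SE). Eif4ebp2, the 4E-BP that prevails in brain, was the lowest of the list at −0.43 ± 0.29 (SE, adjusted p = 0.81 by edgeR), and the AZD-8055 mice at 0.35 and 0.29 lay below the vehicle mice at 0.72 and 0.79. Tfeb was the highest at 0.36 ± 0.33 (SE). Eif4ebp1 was not tested because its counts were too low.

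The next lists held no call by edgeR, DESeq2 or limma-voom. Of 76 tested proteins of the mitochondrial ribosome 3 had an unadjusted p under 0.05, and their median was −0.03, with Mrps25 lowest at −0.35 and Mrps28 highest at 0.39. The mitochondrial and the cytoplasmic ribosome gave 0 of 76 and 74 of 77 calls. Of 34 proteasome genes 1 had an unadjusted p under 0.05 (median −0.05, from Psma3 at −0.27 to Psmd9 at 0.20), as had 3 of 30 autophagy genes (median −0.06, from Atg4c at −0.44 to Atg7 at 0.42). Of 14 tested stress genes with upstream open reading frames 1 had an unadjusted p under 0.05, with a median of 0.07, from Ifrd1 at −0.27 to Mthfd2 at 0.32. Of 24 immediate early genes, which neurons switch on with activity, 3 had an unadjusted p under 0.05 and 1 was called with the replicate block. Their median was 0.04, with Egr4 highest at 0.35 and Klf4 lowest at −1.36 ± 0.56 (SE), where mice A and B differed by more than 1 on the log2 scale. Of 30 glutamate receptor genes 2 had an unadjusted p under 0.05, with a median of 0.08, from Grik2 at −0.18 to Grin3a at 0.37.

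**Figure D5:**
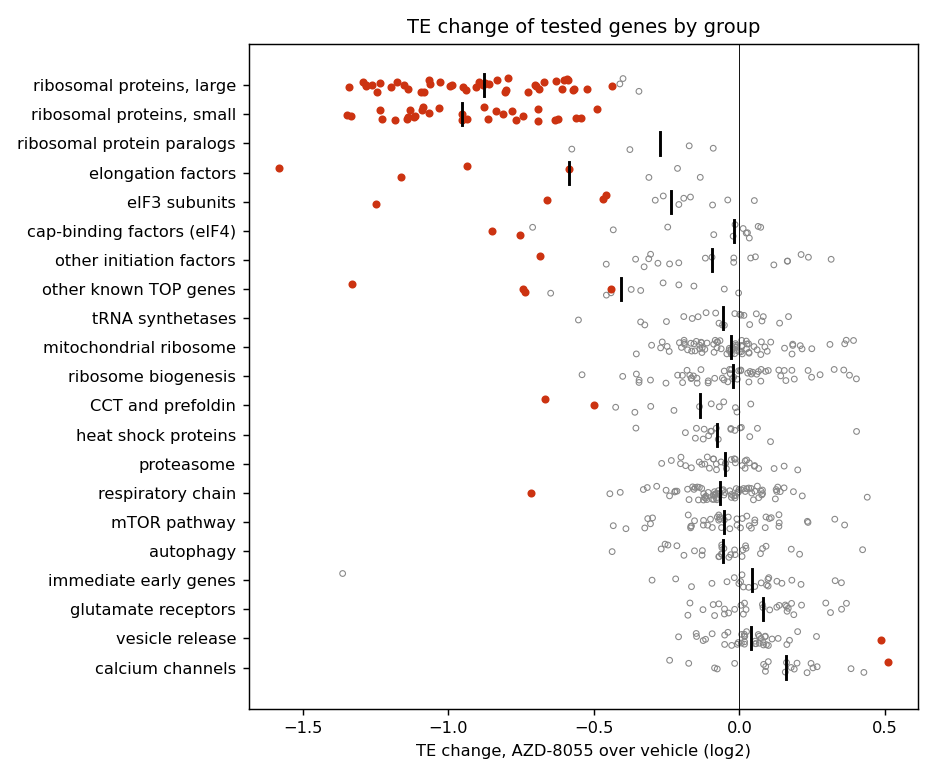
Log2 change in TE after AZD-8055 for the tested members of 21 gene groups, 1 circle per gene (filled red, called in either direction; open grey, not called) with the median of each group as a black bar. The ribosomal proteins of both subunits lie to the left of zero with medians of −0.88 and −0.95, while groups below the tRNA synthetases have medians between −0.14 and 0.16.

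A TOP-like start, that is, a C at the annotated start followed by at least 4 bases that are C or T on the transcribed strand, was looked for in the RefSeq starts, where a gene counted if any of its annotated starts matched. The reference table held 7915 of the tested genes, 70 of the 96 genes with lower TE and 8 of the 10 with higher TE. It matched 3.01% of all 27025 genes in the table, 3.13% of the tested genes and 18.6% of the genes with lower TE (13 of 70), of which 12 were ribosomal protein genes and the other was Eif3f. Among the translation machinery genes that were not called, 6.25% matched (4 of 64), and among the genes with higher TE 1 of 8 did (12.5%), which was Dst. The match depends on the exact base that is annotated as the start. In Rps12, Rpl13a and Cox7a2l, for example, the run in capitals begins a few bases after it. With the run allowed to begin within 20 bases of the start, the shares were 55.2% of tested genes, 74.3% of genes with lower TE, 56.2% of machinery genes that were not called and 37.5% of genes with higher TE (3 of 8). For a run of C and at least 7 pyrimidines, a length chosen after the data were seen, they were 18.5%, 44.3% and 28.1% for the first 3 groups, and 2 of 8 genes with higher TE matched.

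Outside the translation machinery, genes with and without a TOP-like start had similar medians. The 231 tested genes with one had a median log2 change of −0.02 and held none of the calls, and the 7556 without one had a median of −0.01 and 6 calls. Both AZD-8055 mice lay below both vehicle mice in 20.4% of the former and 19.5% of the latter, close to the 19.9% of all tested genes. Of the 6 genes outside the machinery with lower TE that the table held, 4 had a run beginning within 20 bases of the start (Cox7a2l, Pfdn5, Pitpnb and Snx5) and Nob1 and Nsa2 had none, which says only that these letters are not in this window.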

How the data were processed

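Per the labels and methods, footprints of mice A to D were sequenced with a ligation-free protocol and RNA-Seq used poly(A)-selected RNA. The authors deposited whole-number counts per gene without normalization, on CDS and, for RNA-Seq, on exons. They trimmed reads, removed rRNA reads with Bowtie2, aligned to mm10 with TopHat2 and counted uniquely mapped reads with HTSeq. A total of 27 symbols resembled dates and were kept as they were. Here, CDS counts were fitted with edgeR 4.0.16 (TMM, quasi-likelihood, 4 group means, Benjamini-Hochberg threshold 0.05) in R 4.3.3. RiboDiff, used by the study, was not available. TE per mouse used DESeq2 1.42.0 size factors without a pseudocount. Alternatives used DESeq2, limma 3.58.1 and exon counts. Procedures were tested on simulated data without an effect shared by the libraries of a mouse, so that pairing was not covered. Python 3.11.15 with pandas 2.3.3, numpy 2.4.6 and matplotlib 3.10.9 served for lists and figures. Replicates differed by more than counting noise (chi-square per degree of freedom 2.59 to 3.93). Libraries with the same letter come from 1 animal, and the paired differences between RNA-Seq and footprints correlated across genes at 0.245 (A and B) and 0.280 (C and D). The members and lists were chosen with earlier results of these data known. Genes named are the 15 largest falls and rises among called genes that did not overlap between treatments, the same outside the translation machinery, the lowest, highest and up to 5 called members of each list described, and core mTOR genes. Some genes that this rule covers are left out of the text.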

Additional observations from a re-analysis of the deposited data

How the results depend on the processing

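Across up to 15 alternatives per gene, none of the called genes named here changed direction. These genes were picked as called and without overlap between treatments, so the stable direction is no further evidence. The number of genes with higher TE (10) was 22 with DESeq2, 16 with total counts as scaling, 19 with a mean of at least 100 counts, 23 with no filter and 34 with the mouse as a replicate block. Genes with lower TE outside the translation machinery (7) numbered 4 with a mean of at least 10 counts, 4 with footprints thinned to the smallest total, 23 with no filter and 22 with the replicate block. With no filter, 57 genes passed 2-fold (34 in the report), 87 were called for RNA (10) and 342 for footprints (200), while limma-voom called 20 for RNA. Leaving out single mice gave 56 to 77 genes with lower TE (96), 49 to 64 ribosomal proteins (74), 3 to 17 with higher TE, 0 to 5 outside the machinery, 0 to 39 for RNA and 100 to 332 for footprints. The lowest counts of genes with lower TE, of ribosomal proteins, of genes outside the machinery and of footprint calls came without mouse A. Without mouse B edgeR called 0 genes for RNA, with 574 at an unadjusted p under 0.05. Each such fit leaves 1 mouse in a group, which is assumed to vary like the others.

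Signs turned only for genes that were not called. Pabpc4 was at 1.7e-05 under size factors, 0.029 under total counts and 0.023 with exon counts, Larp1 at 0.016 with exon counts, and Rps6kb1, Cct3 and Eif3b at −0.017, −0.013 and −0.0023 with no filter. Leaving out single mice moved Pabpc4 from −0.18 to 0.12, Larp1 from −0.20 to 0.11, Rps6kb1 from −0.0036 to 0.099, Cct3 from −0.012 to 0.088, Rpl7l1 from −0.17 to 0.038, Bag3 from −0.082 to 0.81 and Cacng5 from −0.58 to 0.16. The cause of these shifts was not tested. Their changes in the report lay near zero or had wide errors. The smallest footprint library, that of mouse C, held 3503873 counts on CDS.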
